A study of Mus musculus with 2 samples.

Results

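Transcripts of 10 genes of the necroptosis machinery were followed across the immune cell classes of the inflamed mouse colon. The members are the kinase genes Ripk1 and Ripk3, the executioner gene Mlkl, the sensor and adaptor genes Zbp1 and Ticam1, the brake genes Fadd, Casp8 and Cflar, and the ubiquitin regulator genes Cyld and Birc3. They were taken by symbol from the 32285 genes of the deposited count tables, and all 10 were present. Their unique molecular identifiers (UMIs, each standing for 1 captured RNA molecule) were summed per library and cell class and divided by all UMIs of that class, which gives a level in CPM, the UMIs of the gene per 1000000 UMIs of the class.

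Necroptosis is a lytic form of cell death. When death receptors, Toll-like receptors or interferons engage a cell whose caspase activity is blocked, RIPK1, the adaptor TRIF (encoded by Ticam1) or the Z-form nucleic acid sensor ZBP1 activates the kinase RIPK3. RIPK3 phosphorylates the pseudokinase MLKL so that it permeabilises the plasma membrane. The pathway is held back by a complex of the adaptor FADD, the protease CASP8 and its catalytically inactive homologue cFLIP (encoded by Cflar), which cleaves RIPK1 and RIPK3. Ubiquitin chains on RIPK1 also hold it back, and cIAP2 (encoded by Birc3) helps to build them while the deubiquitinase CYLD removes them. In the intestine, mouse studies with deletion of these brakes in epithelial cells have tied the pathway to inflammation.

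In C57BL/6 mice with experimental colitis, immune cells taken from the colon were profiled by droplet single-cell RNA sequencing of 3′ transcript ends, in 1 library labelled CKO and 1 library labelled WT. The series title names loss of RPA1, a subunit of the single-strand DNA binding complex RPA, and T cell necroptosis. The sources used here do not give the deleted allele, the Cre driver, the colitis agent, the age or the number of mice. Both libraries share the strain, the tissue and the colitis. With 1 library per label no difference between CKO and WT has a replicate check, so no p-value is given, and every interval is an exact 95% interval for the counting of UMIs or cells alone.

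Rpa1, the gene the title names, had 136 UMIs (54.3 CPM) in CKO-labelled T-like cells and 68 UMIs (36.5 CPM) in WT-labelled T-like cells. Its level was therefore not lower in the library labelled CKO, at a log2 ratio of 0.57 (0.14 to 1.01). A 3′ tag outside a deleted exon checks nothing, and the deleted exons are not known here. The libraries held 11311 barcodes with 57740083 UMIs (CKO) and 2972 barcodes with 18627050 UMIs (WT), with medians of 3338 (CKO) and 4083 (WT) UMIs per barcode, and shared 6 barcode sequences. After filtering 10942 CKO cells and 2924 WT cells were retained and clustered without their labels. Clusters were named by hand from fixed markers and their leading genes, with "-like" added to each name. Some clusters were set aside by hand as mixed (662 CKO and 228 WT cells), and 481 CKO and 603 WT cells stayed unnamed. The leading genes of some mixed clusters are largely of 1 class, such as S100a8, S100a9 and Retnlg in 1 cluster and Cd3g, Cd3e and Trac in another.

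The myeloid class joined neutrophil-like cells (1804 CKO, 180 WT), monocyte and macrophage-like cells (796 CKO, 26 WT) and dendritic cell (DC)-like cells (336 CKO, 27 WT). B-like cells numbered 4999 in CKO and 1101 in WT, plasma-like cells 496 in CKO and 212 in WT, and T-like cells 601 in CKO and 361 in WT. The innate lymphoid class joined NK-like cells (240 CKO, 24 WT), ILC2-like cells (271 CKO, 101 WT) and ILC3-like cells (108 CKO, 36 WT). The small WT myeloid and NK-like classes set the width of most intervals below. S100a8, a neutrophil gene, reached 63.5 CPM in T-like, 84.4 CPM in B-like and 86.7 CPM in innate lymphoid cells of CKO, against 12.4, 14.9 and 7.49 CPM in the same classes of WT, next to 54288 and 20809 CPM in CKO and WT neutrophil-like cells. Its part in the values of the members was not tested.

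Cflar and Casp8 both lie on the forward strand of chromosome 1 (GRCm38, GENCODE vM21), at chr1:58711508-58758884 and chr1:58795374-58847503. Ripk1 spans chr13:34002363-34037147 on the forward strand with 11 exons in its first transcript, Ripk3 chr14:55784995-55788865 on the reverse strand with 10 exons. Mlkl spans chr8:111311797-111338177 on the reverse strand with 11 exons and Zbp1 chr2:173206612-173218923 on the reverse strand with 8 exons. Bphl begins on the same strand within 500 bases of the 3′ end of Ripk1, and the antisense gene Faddos overlaps Fadd. On the same strand, the pseudogene Gm17084 overlaps Ripk1 and the gene model Gm37760 overlaps Casp8. Genes or pseudogenes on the opposite strand overlap Ripk1, Mlkl and Cyld. The counts of Ripk1, Fadd, Casp8, Mlkl and Cyld carry that uncertainty.

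Promoters are shown for Cflar and Birc3, the members that were higher in myeloid than in T-like cells of both libraries, and for the second start of Ripk1, which like Cflar holds letters of an interferon-stimulated response element (ISRE). Each runs from 250 bases before to 50 bases after the RefSeq start (GRCm38.p6), 5′ to 3′ on the gene's strand, and capitals mark matches on either strand to GAAA, 2 bases of any kind and GAAA (ISRE), or to GGGA, 4 bases of any kind and CC (an NF-kappaB, or kB, element).
Cflar, chr1:58711241-58711540, forward strand: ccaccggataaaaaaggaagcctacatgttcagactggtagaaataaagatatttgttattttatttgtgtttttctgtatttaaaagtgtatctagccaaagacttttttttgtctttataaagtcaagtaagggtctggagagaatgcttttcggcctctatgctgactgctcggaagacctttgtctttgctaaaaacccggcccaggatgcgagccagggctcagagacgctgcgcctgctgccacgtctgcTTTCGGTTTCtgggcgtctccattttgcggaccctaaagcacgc
Birc3, chr9:7873121-7873420, reverse strand: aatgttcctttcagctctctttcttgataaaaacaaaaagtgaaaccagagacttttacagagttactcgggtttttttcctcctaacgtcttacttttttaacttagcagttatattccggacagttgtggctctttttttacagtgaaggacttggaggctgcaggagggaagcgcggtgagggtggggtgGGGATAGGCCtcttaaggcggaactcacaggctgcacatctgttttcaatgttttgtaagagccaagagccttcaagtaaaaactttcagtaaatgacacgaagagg
Ripk1, the second start, chr13:34002624-34002923, forward strand: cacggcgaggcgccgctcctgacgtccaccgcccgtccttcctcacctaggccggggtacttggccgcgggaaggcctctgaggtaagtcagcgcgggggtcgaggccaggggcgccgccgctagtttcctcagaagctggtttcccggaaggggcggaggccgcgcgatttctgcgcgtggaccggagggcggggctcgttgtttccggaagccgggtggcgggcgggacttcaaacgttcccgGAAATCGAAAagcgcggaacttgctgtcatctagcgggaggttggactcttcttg
Of the 10 members, 9 were in the promoter table, with 10 promoters. ISRE letters stood in the 2 promoters shown for Cflar (reverse strand, from position 7 counted from the start) and Ripk1 (forward strand, from position -5), against 3.44% of all 32851 promoters of this length. The kB letters stood in Birc3 (from position -57) and Cyld (from position -155), against 20.7% of all promoters. A gamma-activated sequence (GAS), TTCNNNGAA, was matched in 8.30% of all promoters and among the members at Ripk1 alone, from positions -108 and -11, and the match at -11 overlaps the ISRE letters. A match describes the letters only.

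Across classes the myeloid cells differed from T-like cells in the brake gene Cflar and the ubiquitin ligase gene Birc3, in both libraries. Of the 7 members with at least 20 UMIs over the compared classes in each library, these 2 were at least 2-fold higher in myeloid than in T-like cells in both libraries and 0 were lower; of 7825 genes measured this way, 13.4% were higher, 28.1% lower and 41.5% either. In B-like over T-like cells 0 of 9 members passed, while 18.8% of all genes did (8.2% higher, 10.6% lower). In innate lymphoid over T-like cells 0 of 7 members passed, while 8.47% of all genes did (3.79% higher, 4.68% lower). In plasma-like over T-like cells 5 of 9 members were lower, in a comparison where 60.5% of all genes passed, 53.7% lower and 6.77% higher, so this share is near that of all genes.

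**Figure D1:**
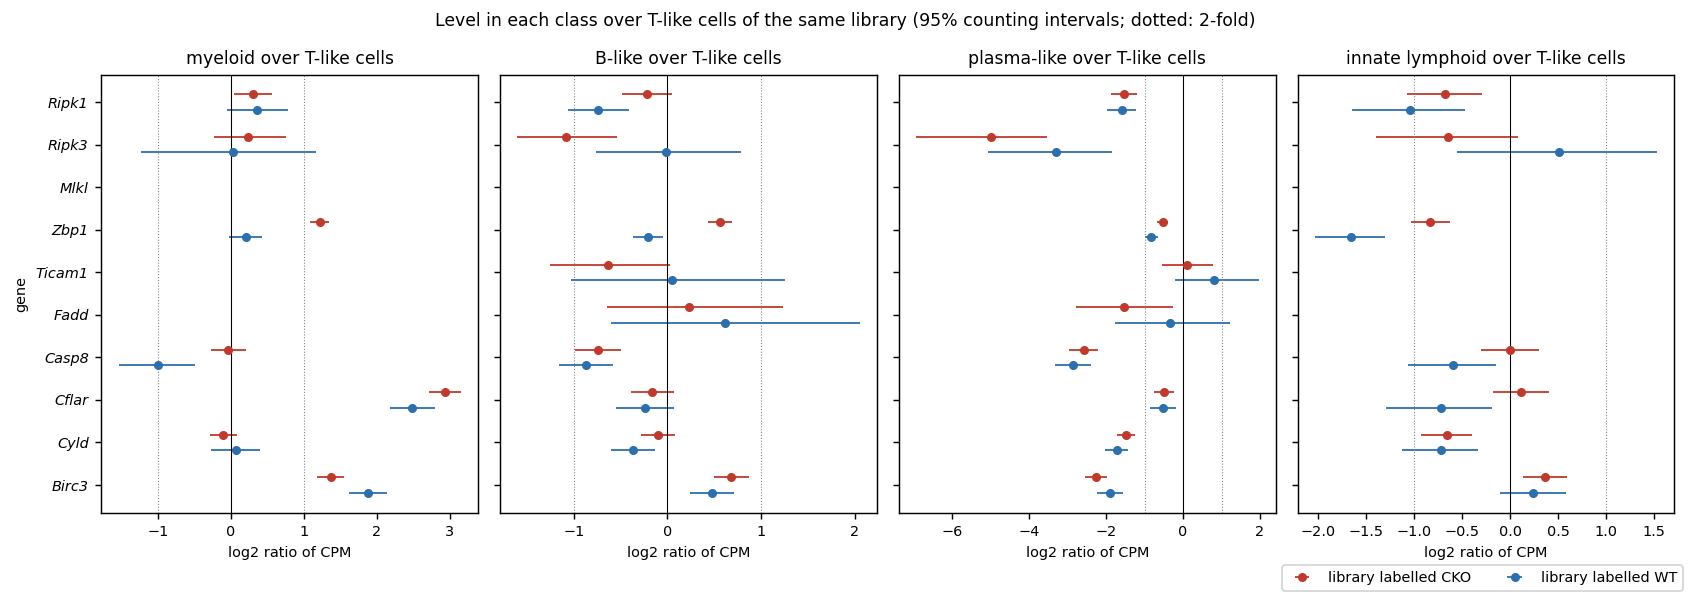
Log2 ratio of each member's level (CPM) in the myeloid, B-like, plasma-like and innate lymphoid classes over T-like cells of the same library; points are the libraries labelled CKO and WT, bars are 95% counting intervals, dotted lines mark 2-fold, and members under 20 UMIs in either library are not drawn. Cflar lies past the 2-fold line in myeloid cells at 2.93 in CKO and 2.49 in WT. In plasma-like cells 5 members lie past it on the low side in both libraries, as 53.7% of all genes did, and Fadd in CKO alone.

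Cflar, whose product cFLIP pairs with CASP8, stood at 747 CPM in monocyte and macrophage-like, 460.4 CPM in neutrophil-like and 304 CPM in DC-like cells of CKO, and at 634, 424 and 109 CPM in the same classes of WT. Its lymphoid levels were 71.5 CPM (T-like), 63.9 CPM (B-like), 50.3 CPM (plasma-like), 85.8 CPM (NK-like), 55.7 CPM (ILC2-like) and 92.8 CPM (ILC3-like) in CKO, against 67.1, 56.7, 46.5, 79.3, 24.8 and 56.0 CPM in WT. The order monocyte and macrophage-like, neutrophil-like, DC-like and then all lymphoid classes held in both libraries. It came with separate counting intervals between the first 3 of these classes and, in CKO, between DC-like cells and every lymphoid class. The WT DC-like interval (73.6 to 156 CPM) overlapped those of T-like, NK-like and ILC3-like cells. Myeloid over T-like cells came to 7.65-fold in CKO and 5.61-fold in WT, a log2 ratio of 2.93 (2.72 to 3.16) and 2.49 (2.19 to 2.80).

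Within the myeloid cells of CKO, Cflar was highest in monocyte and macrophage-like cells led by Prg4 (904 CPM, 27 cells), in neutrophil-like cells led by Csf1 and Ccl3 (866 CPM, 287 cells) and in the Nos2-led monocyte and macrophage-like cluster (802 CPM, 328 cells), whose intervals overlap. The lowest were the DC-like cluster led by Xcr1, at 185 CPM in 76 cells, and the neutrophil-like cluster led by the granule genes Ngp and Camp, at 233 CPM in 97 cells. The Nos2-led and the Csf1 and Ccl3-led clusters kept their class names with 0 of its markers among their 10 leading genes. At 1000 UMIs per cell, a Cflar UMI was found in 37.2% of CKO and 27.3% of WT myeloid cells and in 7.48% of CKO and 5.62% of WT T-like cells (70.1 and 49.8%, and 23.6 and 26.3%, before thinning).

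Birc3, which encodes the ubiquitin ligase cIAP2, was highest in neutrophil-like cells. Its level was 426 CPM in neutrophil-like, 206 CPM in monocyte and macrophage-like and 141 CPM in DC-like cells of CKO, and 620.3, 284 and 120.0 CPM in those of WT. T-like cells held 105 CPM in CKO and 103 CPM in WT, B-like cells 169 CPM in CKO and 144 CPM in WT, innate lymphoid cells 136 CPM in CKO and 122 CPM in WT, and plasma-like cells 22.01 CPM in CKO and 27.6 CPM in WT. Myeloid over T-like cells came to 2.58-fold in CKO and 3.68-fold in WT. The neutrophil-like interval lay above that of every other class in both libraries, and the plasma-like interval lay below every other.

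Cyld, the deubiquitinase gene, was highest in neutrophil-like and lowest in plasma-like cells of both libraries. Outside plasma-like cells it ran from 57.0 CPM in monocyte and macrophage-like to 155 CPM in neutrophil-like cells of CKO, and from 57.6 CPM in NK-like to 154 CPM in neutrophil-like cells of WT, and plasma-like cells stood at 41.7 CPM (CKO) and 37.4 CPM (WT). T-like cells stood at 117 CPM in CKO and 124 CPM in WT, and B-like cells at 109 and 95.5 CPM. In no class did CKO and WT levels of Cyld differ by 1.5-fold.

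In plasma-like cells, which secrete antibody, the members at least 2-fold below T-like cells of both libraries were Ripk1, Ripk3, Casp8, Cyld and Birc3. Ripk3 had 4 UMIs in plasma-like cells of CKO and 5 in those of WT, or 0.512 and 1.14 CPM, against 16.4 CPM in CKO and 11.3 CPM in WT T-like cells, log2 ratios of -5.00 (-6.94 to -3.53) and -3.31 (-5.07 to -1.86). Casp8 was 11.8 CPM in CKO and 12.3 CPM in WT plasma-like cells, against 70.3 and 89.1 CPM in T-like cells, log2 ratios of -2.58 and -2.86. Zbp1 and Cflar were within 2-fold of T-like cells, at log2 ratios of -0.53 and -0.51 in CKO and -0.82 and -0.53 in WT. Immunoglobulin transcripts fill much of the plasma-like total; with immunoglobulin, T cell receptor, ribosomal and mitochondrial genes out of the total, Ripk3 and Casp8 stayed at least 2-fold lower, Ripk1, Cyld and Birc3 did not, and Ticam1 was at least 2-fold higher than in T-like cells.

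**Figure D2:**
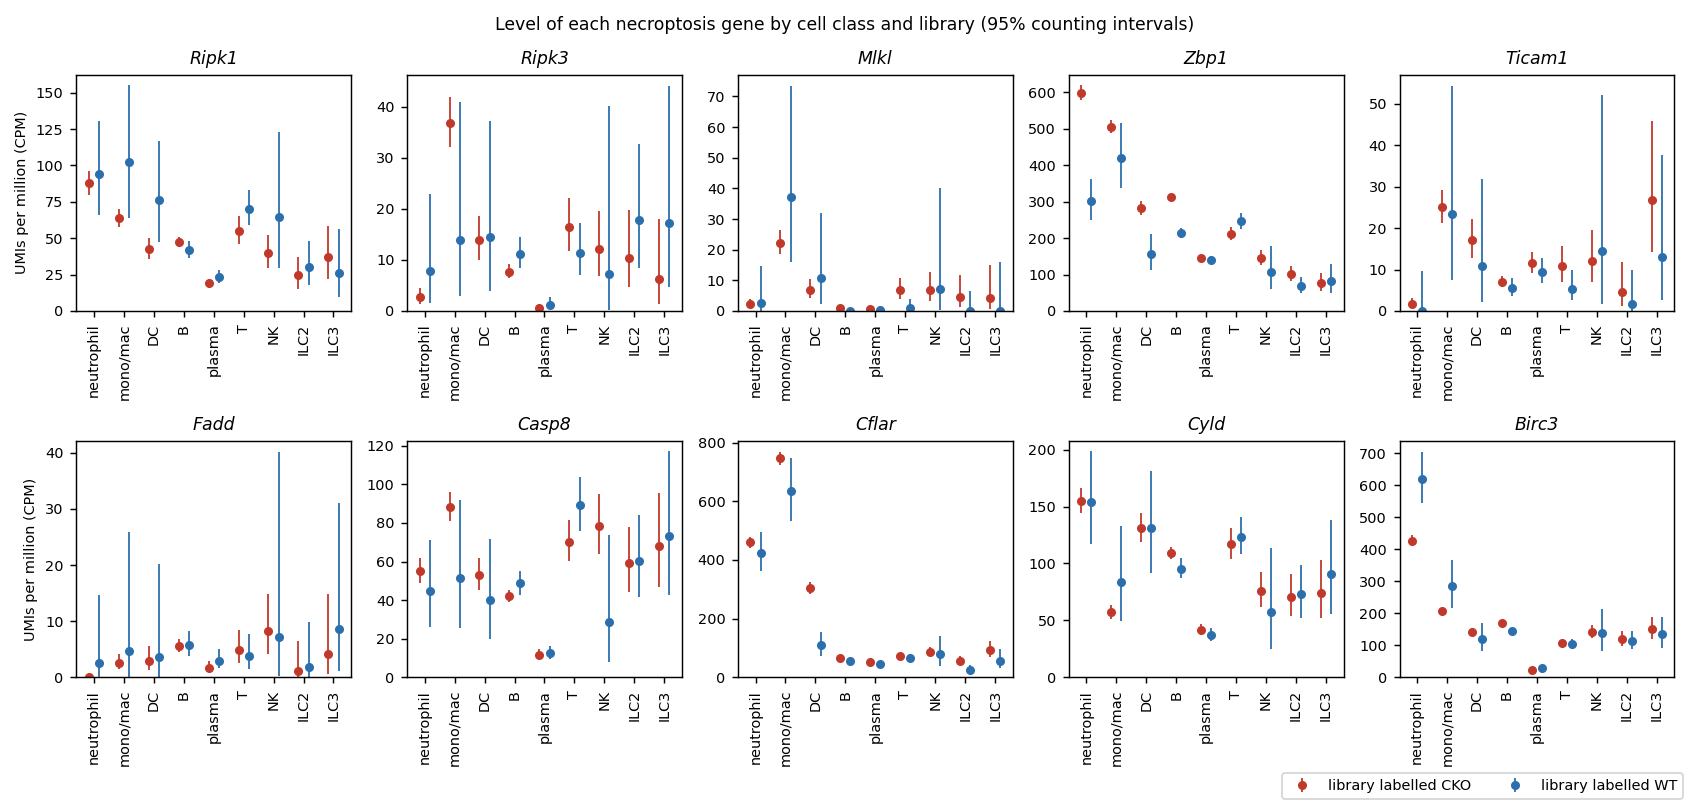
Level of each of the 10 members in 9 cell classes, in CPM on a linear axis that differs between panels; points are the libraries labelled CKO (left of each pair) and WT, and bars are 95% counting intervals. Cflar and Birc3 stand out in both neutrophils and monocytes or macrophages, and plasma-like cells are the lowest class for Ripk1, Ripk3, Casp8, Cyld and Birc3 in both libraries.

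Ripk3, the kinase that commits a cell to necroptosis, was uneven within the myeloid cells. In CKO it reached 36.8 CPM (222 UMIs, 32.1 to 41.9 CPM) in monocyte and macrophage-like cells, above the intervals of the other 8 classes there; DC-like cells had 13.8 CPM (43 UMIs), and neutrophil-like cells 2.66 CPM (14 UMIs, 1.46 to 4.47 CPM), while Ripk1 had 462 UMIs in the same neutrophils. Lymphoid levels in CKO were 16.4 CPM in T-like (41 UMIs), 7.72 CPM in B-like (128 UMIs), 12.04 CPM in NK-like, 10.5 CPM in ILC2-like and 6.19 CPM in ILC3-like cells. WT counts were small: 3 UMIs (13.98 CPM) in monocyte and macrophage-like, 4 (14.5 CPM) in DC-like, 3 (7.85 CPM) in neutrophil-like, 21 (11.3 CPM) in T-like, 56 (11.1 CPM) in B-like and 15 (16.05 CPM) in innate lymphoid cells, and apart from plasma-like cells all WT intervals overlap.

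The CKO monocyte and macrophage-like clusters each held Ripk3, at 45.5 CPM in the cluster led by Nos2, the inducible nitric oxide synthase gene, 30.8 CPM in that led by the complement gene C1qa, 29.0 CPM in that led by Vcan and 25.5 CPM in that led by Prg4. Only the intervals of the Nos2-led (38.0 to 54.1 CPM) and Vcan-led (22.5 to 36.7 CPM) clusters are separate. All 6 neutrophil-like clusters of CKO lay between 1.45 and 4.06 CPM, with 14 UMIs in all. In the unnamed cycling lymphoid cells Ripk3 reached 28.0 CPM in CKO (26 UMIs, 80 cells) and 34.9 CPM in WT (11 UMIs, 12 cells). Cells with a Ripk3 UMI after thinning made up 3.60% of CKO monocyte and macrophage-like cells (21.1% unthinned, median depth 7787 UMIs) and 0.174% of CKO neutrophil-like cells (0.776% unthinned, median depth 2579.5 UMIs); in WT monocytes and macrophages 0 of 24 thinned cells held one, which allows up to 12.5%, and 11.5% of the 26 unthinned cells did.

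Mlkl, the membrane-breaking pseudokinase gene, had, among the 9 compared classes, its highest level in monocytes and macrophages of both libraries. It had 134 UMIs (22.2 CPM, 18.6 to 26.3) in those cells of CKO and 8 UMIs (37.3 CPM, 16.1 to 73.4) in those of WT, 7 of the 8 in the 5 WT cells of the Nos2-led cluster. DC-like cells held 6.74 CPM (21 UMIs) in CKO and 10.9 CPM (3 UMIs) in WT, and neutrophil-like cells 2.28 CPM (12 UMIs) and 2.62 CPM (1 UMI). B-like cells had 17 UMIs among 16575427 in CKO (1.03 CPM) and 0 among 5023870 in WT, where a count of 0 allows up to 0.597 CPM.

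The Nos2-led cluster carried 99 of the 134 Mlkl UMIs of CKO monocyte and macrophage-like cells, at 35.2 CPM (28.6 to 42.8), against 11.3 CPM (7.47 to 16.5) in the Vcan-led and 10.8 CPM (4.34 to 22.2) in the C1qa-led cluster. T-like cells had 17 Mlkl UMIs in CKO (6.79 CPM) and 2 in WT (1.07 CPM), a ratio of 6.32-fold with an interval of 0.59 to 5.82 on the log2 scale, and under the 20 UMIs set for a comparison. By T cell subset those 17 were spread over 5 each in CD8 T-like cells and in a subset led by Cd8a and Itgae, 3 each in subsets led by Lef1 and by Ikzf2 and Cd7, and 1 in CD4 T-like cells, with 0 in gamma-delta T-like cells. In the same T-like cells the summed neutrophil markers stood at 227 CPM in CKO (0 of 9 at 0) and 67.1 CPM in WT (Cxcr2 and Ly6g at 0), and the summed monocyte and macrophage markers at 486 CPM in CKO (0 of 12 at 0) and 522 CPM in WT (5 of 12 at 0). Their part in the Mlkl values was not tested.

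**Figure D3:**
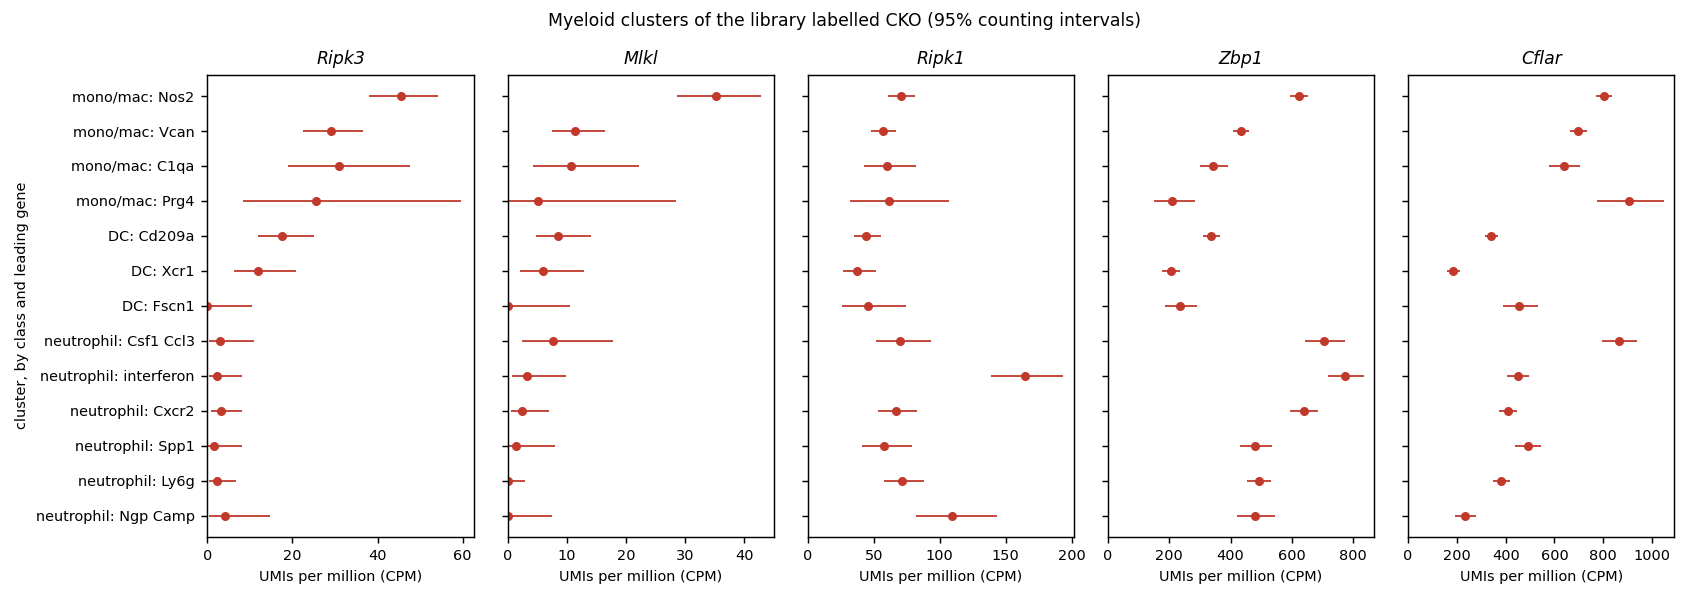
Level of Ripk3, Mlkl, Ripk1, Zbp1 and Cflar in 13 myeloid clusters of the library labelled CKO. The CPM axis is linear and differs between panels, and bars are 95% counting intervals. Clusters are named by class and by a gene or gene group. Cd209a and Ly6g are not among the 10 leading genes of the clusters named after them. Ripk3 and Mlkl peak in the Nos2-led monocyte and macrophage-like cluster at 45.5 and 35.2 CPM, while Ripk1 peaks in interferon-led neutrophils at 165 CPM.

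Ripk1, the kinase scaffold shared by survival and death signalling, was measured in every class and lowest in plasma-like cells. CKO levels were 87.9 CPM in neutrophil-like, 63.6 CPM in monocyte and macrophage-like, 42.4 CPM in DC-like, 47.4 CPM in B-like, 18.9 CPM in plasma-like, 55.1 CPM in T-like and 34.4 CPM in innate lymphoid cells. WT levels in the same classes were 94.2, 103, 76.4, 42.2, 23.3, 70.3 and 34.2 CPM. Neutrophil-like cells were set apart by interval from all other classes in CKO; in WT they overlapped monocyte and macrophage-like, DC-like, NK-like and T-like cells. Among CKO neutrophils the cluster led by interferon-induced genes stood at 165 CPM (139 to 193, 147 UMIs), above the other 5 clusters at 58.0 to 110 CPM, of which only the Ngp and Camp-led cluster (82.3 to 143 CPM) has an interval that overlaps it.

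Zbp1, an interferon-induced sensor of Z-form nucleic acids, was 599 CPM in neutrophil-like, 505 CPM in monocyte and macrophage-like, 283 CPM in DC-like, 311 CPM in B-like, 146 CPM in plasma-like and 211 CPM in T-like cells of CKO. In WT it was 301, 419, 156, 213, 139 and 246 CPM in these classes. Innate lymphoid cells were the lowest, at 119 CPM in CKO and 78.1 CPM in WT. Myeloid over T-like cells was 2.33-fold in CKO and 1.15-fold in WT, so it passed 2-fold in CKO alone.

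Among B-like clusters and T-like subsets Zbp1 was uneven. The B-like cluster led by interferon-induced genes had 590.0 CPM in CKO and 498 CPM in WT, while the other 9 B-like clusters lay between 182 and 322 CPM in CKO and between 93.3 and 334 CPM in WT. Clusters were formed from these same counts, so a high level of an interferon-induced gene in an interferon-led cluster is no separate finding. Among T-like subsets the Lef1-led cells, which carry genes of naive T cells, had 535 CPM in CKO and 393 CPM in WT, CD8 T-like cells 401 CPM in CKO and 269.8 CPM in WT, Ikzf2 and Cd7-led cells 117 CPM in CKO and 82.5 CPM in WT, and gamma-delta T-like cells 107 CPM in CKO and 117 CPM in WT. Lef1-led cells also had the highest Casp8 of the T-like subsets, at 124 CPM in CKO and 137 CPM in WT, and Ripk1 at 95.7 CPM in CKO and 103 CPM in WT, but 1 Ripk3 UMI in CKO and 4 in WT (3.55 and 5.58 CPM).

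Ticam1, which encodes the Toll-like receptor adaptor TRIF, reached 26.8 CPM (13 UMIs) in ILC3-like cells of CKO and 12.9 CPM (3 UMIs) in those of WT. Monocyte and macrophage-like cells had 25.01 CPM (151 UMIs) in CKO and 23.3 CPM (5 UMIs) in WT. Neutrophil-like cells had 9 UMIs (1.71 CPM, 0.78 to 3.25) in CKO, with an interval that overlaps that of ILC2-like cells (1.27 to 11.9 CPM), and 0 UMIs in WT. The WT count of 0 allows up to 7.85 CPM, above the WT levels of several other classes. T-like cells had 10.8 CPM (27 UMIs) in CKO and 5.37 CPM (10 UMIs) in WT. B-like cells had 6.94 CPM in CKO and 5.57 CPM in WT, and plasma-like cells 11.5 and 9.35 CPM.

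Casp8, the protease gene, was 88.4 CPM in monocyte and macrophage-like, 55.1 CPM in neutrophil-like, 53.0 CPM in DC-like, 42.0 CPM in B-like, 70.3 CPM in T-like and 70.3 CPM in innate lymphoid cells of CKO. The WT levels were 51.3, 44.5, 40.0, 48.8, 89.1 and 58.8 CPM, so the class with the highest level was monocyte and macrophage-like cells in CKO and T-like cells in WT. These top levels are not set apart by interval. In CKO the interval (81.1 to 96.3 CPM) overlapped that of NK-like cells (64.0 to 94.8). In WT the T-like interval (76.1 to 104 CPM) overlapped that of monocyte and macrophage-like cells (25.6 to 91.7, 11 UMIs), among others. Fadd, the adaptor gene, was sparse everywhere: B-like cells, with the most UMIs, had 93 (5.61 CPM) in CKO and 29 (5.77 CPM) in WT, and the myeloid class had 24 (1.67 CPM) and 3 (3.44 CPM). Among neutrophil-like cells Fadd had 0 UMIs in CKO, where a count of 0 allows up to 0.570 CPM, and 1 UMI in WT.

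Set side by side within each class, CKO and WT differed past 1.5-fold for 5 of 10 members in myeloid cells, 0 of 9 in B-like, 1 of 8 in plasma-like, 1 of 8 in T-like and 4 of 8 in innate lymphoid cells, counting members with at least 20 UMIs over both libraries. The same rule passed 34.3% of all measured genes in myeloid, 12.5% in B-like, 16.4% in plasma-like, 20.8% in T-like and 26.6% in innate lymphoid cells. In myeloid cells the 4 members past the fold on the high side, as 16.5% of all genes were, had log2 ratios of 0.79 (0.61 to 0.98) for Zbp1, 0.62 (0.16 to 1.12) for Casp8, 0.75 (-0.15 to 1.83) for Ripk3 and 0.69 (-0.32 to 1.92) for Ticam1. Fadd was past it on the low side, as 17.8% of all genes were, at -1.05 (-2.77 to 1.33). The intervals of Ripk3, Ticam1 and Fadd include 0, on 10, 8 and 3 WT UMIs. In innate lymphoid cells (16.9% of all genes higher, 9.68% lower) Zbp1 came to 0.61 (0.24 to 0.99), Cflar to 0.93 (0.42 to 1.47), Ticam1 to 0.94 (-0.33 to 2.49) and Ripk3 to -0.62 (-1.57 to 0.39). Fadd came to -0.83 (-2.06 to 0.39) in plasma-like cells, where 10.2% of all genes were lower and 6.26% higher. Ticam1 came to 1.01 (-0.09 to 2.22) in T-like cells, where 13.1% of all genes were higher and 7.7% lower. In B-like cells 5.55% of all genes were higher and 6.9% lower. The median log2 ratio of the members was 0.15 in myeloid cells (all genes 0.00), 0.17 in B-like (-0.03), 0.00 in plasma-like (-0.09), -0.02 in T-like (0.07) and 0.21 in innate lymphoid cells (0.07).

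**Figure D4:**
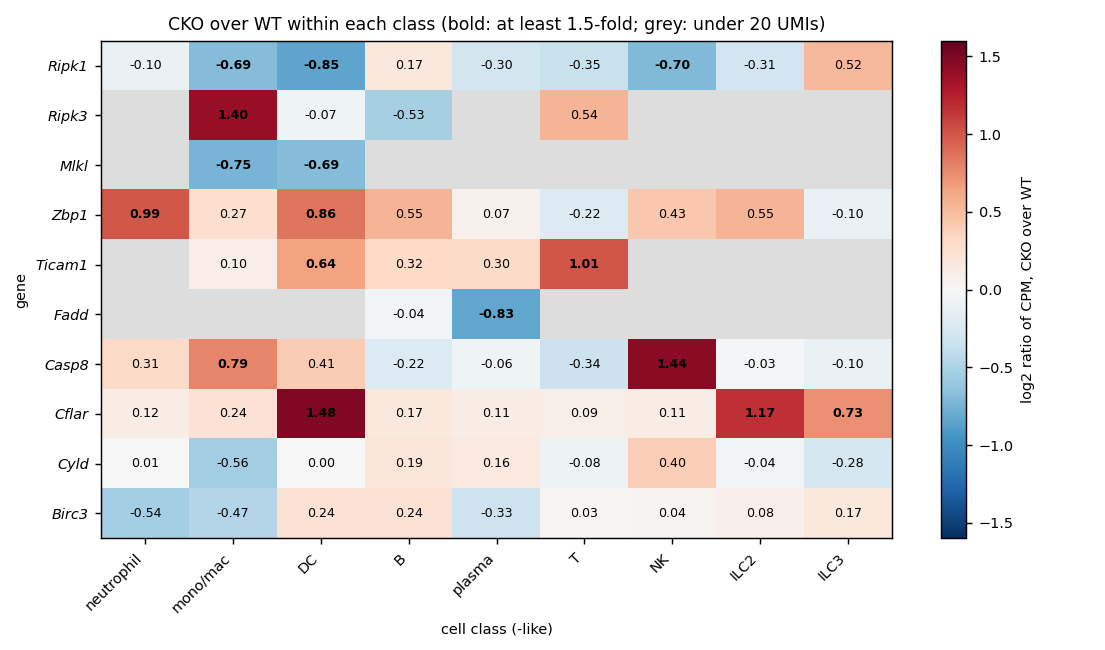
Log2 ratio of CPM, CKO over WT, for the 10 members in 9 classes; red is higher in CKO, blue lower, bold marks at least 1.5-fold and grey marks fewer than 20 UMIs over both libraries. Zbp1 is bold in neutrophil-like (0.99) and DC-like cells (0.86), Cflar in DC-like (1.48), ILC2-like (1.17) and ILC3-like cells (0.73), and Ripk1 is bold on the low side in 3 classes. Of all genes, 46.5% passed 1.5-fold in neutrophil-like, 35.9% in monocyte and macrophage-like and 36.3% in DC-like cells. The share was 36% in NK-like, 24.3% in ILC2-like and 27.2% in ILC3-like cells.

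Among the ratios past 1.5-fold in the compared classes, those of Zbp1 rested on the most WT UMIs. Neutrophil-like cells had 3149 UMIs in CKO and 115 in WT, a log2 ratio of 0.99 (0.72 to 1.27), and DC-like cells 881 and 43 UMIs, a log2 ratio of 0.86 (0.41 to 1.33). B-like cells were 0.55 (0.45 to 0.64) and ILC2-like cells 0.55 (-0.01 to 1.13), both just under 1.5-fold, while T-like cells were -0.22 (-0.41 to -0.04), or 0.32 with the T-like subsets weighted alike. Neutrophil-like cells lay in different clusters in the libraries. The Spp1-led cluster held 270 CKO and 115 WT cells and the interferon-led cluster 257 and 7. A cluster named after Ly6g, which is not among its 10 leading genes, held 348 and 1. Within the Spp1-led cluster the Zbp1 log2 ratio was 1.38 (0.93 to 1.87), within the Csf1 and Ccl3-led cluster 0.98 (0.42 to 1.599) and within the Cxcr2-led cluster 0.88 (0.15 to 1.73). In the interferon-led cluster it was -0.52 (-1.11 to 0.15), and in the Ly6g-named cluster, with its 1 WT cell, -2.08 (-3.21 to -0.63). By B-like cluster the log2 ratio was 0.24 (0.07 to 0.42) in the interferon-led cells. Cells were placed in all these clusters by the same counts, and the part of that in the ratios was not tested. Within neutrophils a Zbp1 UMI was found at 1000 UMIs per cell in 40.9% of CKO and 20.9% of WT cells (67.6 and 31.1% unthinned). In these cells 1 of 6 members passed 1.5-fold, and 46.5% of all genes did (20.5% higher, 26% lower). Birc3 gave -0.54 (-0.74 to -0.34) there, on 2241 CKO and 237 WT UMIs. By class Birc3 was -0.48 (-0.64 to -0.31) in myeloid, 0.24 (0.12 to 0.36) in B-like and -0.33 (-0.67 to 0.02) in plasma-like cells. It was 0.03 (-0.24 to 0.31) in T-like and 0.15 (-0.15 to 0.47) in innate lymphoid cells, all within 1.5-fold.

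For Cflar the ratio was largest in DC-like cells among the 9 classes, with 946 UMIs in CKO and 30 in WT and a log2 ratio of 1.48 (0.95 to 2.05). Of the 30 WT UMIs, 9 came from 1 cell. The interval overlaps those of ILC2-like cells and of ILC3-like cells, which gave 0.73 (-0.19 to 1.74). Of all genes, 36.3% passed 1.5-fold in DC-like cells (22.6% higher, 13.7% lower). Monocyte and macrophage-like cells were within 1.5-fold at 0.24 (-0.01 to 0.49), as were neutrophil-like cells at 0.12 (-0.11 to 0.36). ILC2-like cells, with 48 UMIs in CKO and 14 in WT, gave 1.17 (0.28 to 2.14). Of all genes, 24.3% passed 1.5-fold in ILC2-like cells (13.3% higher, 11% lower). DC-like clusters were not the same mix in the libraries. A cluster named after Cd209a, which is not among its 10 leading genes, held 211 CKO and 17 WT cells. The Xcr1-led cluster held 76 and 8 cells and the Fscn1-led cluster 49 and 2. Within the Cd209a-named cells Cflar was 342 CPM in CKO and 102 CPM in WT.

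Casp8 was 0.79 (-0.06 to 1.80) in monocyte and macrophage-like cells, with 534 UMIs in CKO and 11 in WT, and 1.44 (0.04 to 3.34) in NK-like cells, with 104 and 4 UMIs. T-like cells gave -0.34 (-0.66 to -0.03) for Casp8 and -0.35 (-0.71 to 0.00) for Ripk1, both within 1.5-fold, and Casp8 was 0.12 with the T-like subsets weighted alike. Ripk1 was lower in CKO in monocyte and macrophage-like cells at -0.69 (-1.31 to 0.00), in DC-like cells at -0.85 (-1.52 to -0.11) and in NK-like cells at -0.70 (-1.73 to 0.50), on 22, 21 and 9 WT UMIs. Of all genes, 35.9% passed 1.5-fold in monocyte and macrophage-like cells (16.2% higher, 19.7% lower), 36.3% in DC-like cells (22.6% higher, 13.7% lower) and 36% in NK-like cells (21.7% higher, 14.2% lower).

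Ripk3 was 1.40 (-0.17 to 3.68) in monocyte and macrophage-like cells on 222 UMIs in CKO and 3 in WT, -0.07 (-1.54 to 1.86) in DC-like cells, 0.54 (-0.25 to 1.37) in T-like cells and -0.53 (-0.99 to -0.05) in B-like cells. Mlkl was -0.75 (-1.77 to 0.49) in monocyte and macrophage-like cells and -0.69 (-2.44 to 1.70) in DC-like cells. Of these 6 intervals, that of B-like Ripk3 lies below 0 and the other 5 include 0.

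The myeloid values also follow the make-up of the class. Neutrophil-like cells were 1804 of 2936 CKO and 180 of 233 WT myeloid cells, and monocyte and macrophage-like cells 796 and 26. With the 3 myeloid subsets given equal weight, 3 members passed 1.5-fold in place of 5: Zbp1 higher, Mlkl and Fadd lower, and no longer Ripk3, Ticam1 or Casp8. With the innate lymphoid subsets given equal weight, 0 members passed in place of 4.

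**Figure D5:**
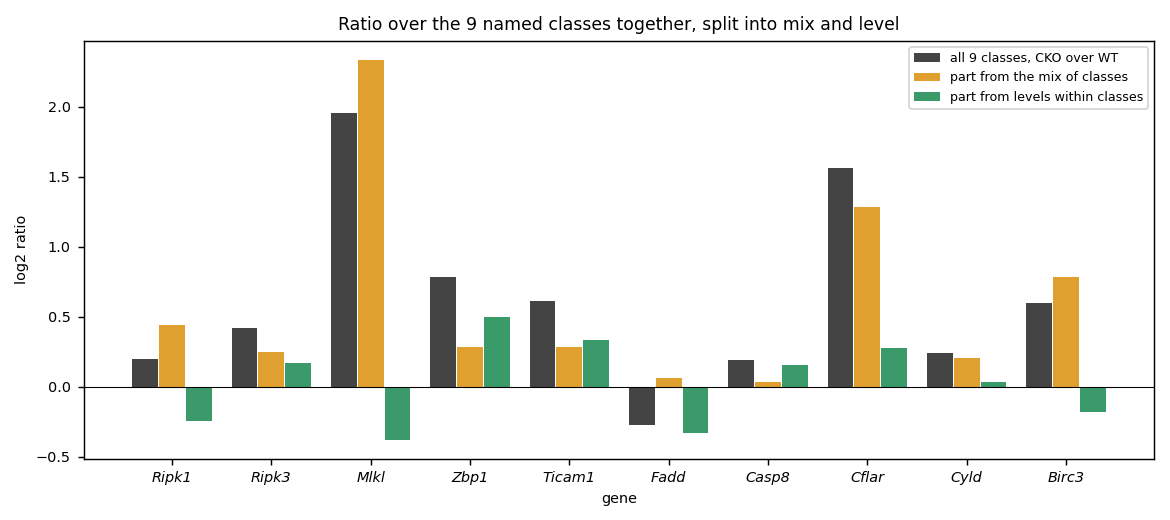
Log2 ratio CKO over WT of each member over the 9 classes together, next to its split into a part from the mix of classes (WT levels at the CKO mix over WT) and a part from levels within classes (CKO over WT levels at the CKO mix); the bars of the parts add to the total. Mlkl and Cflar have the largest totals, 1.96 and 1.56, and the largest parts from the mix, 2.34 and 1.28. The parts depend on the order of the split, and only this order was run.

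Over the 9 classes together, the ratio was split in only this order: the mix at WT levels, then levels at the CKO mix. The parts depend on the order, and the reverse order was not run. In this order, the larger part of the difference in Cflar and Mlkl went with which cells were captured. Myeloid classes gave 11.96% (neutrophil-like), 13.7% (monocyte and macrophage-like) and 7.08% (DC-like) of class UMIs in CKO, against 2.92, 1.64 and 2.10% in WT, while plasma-like and T-like cells gave 17.8 and 5.69% in CKO against 33.5 and 14.2% in WT. The total Cflar log2 ratio of 1.56 (1.46 to 1.66) split into 1.28 from the mix and 0.28 from levels. Mlkl split its 1.96 (1.25 to 2.76) into 2.34 from the mix and -0.38 from levels, the WT level of monocytes and macrophages resting on 8 UMIs. Birc3 split 0.60 into 0.78 and -0.18. Zbp1 split its 0.78 (0.72 to 0.84) into 0.28 from the mix and 0.50 from levels in this order. Which of these parts is larger can change with the order. The sources used here do not say how cells were sorted before loading.

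The genes whose class profile was most like that of a member were read from log2(CPM + 10) over 24 class-by-library sums, among 10226 genes. Each sum held at least 100000 UMIs. Some lay outside the compared classes, in mast-like, fibroblast-like, epithelial-like and Gzmc and Ncr1-led cells. For Mlkl these were Bag3 (Pearson r = 0.93), Sash1 (0.91) and Rin2 (0.89), for Zbp1 the interferon-induced genes Ifi27l2a (0.86), Ifit2 (0.85) and Oas2 (0.84), and for Ripk3 Gpalpp1 (0.81), Map4k4 (0.80) and Zfp992 (0.78). Between members, the Zbp1 profile had r = 0.69 with Cflar and 0.68 with Ripk1, while Ripk3 had 0.20 with Mlkl and 0.03 with Zbp1. The sums share their libraries and differ in depth, and many hold few UMIs of Ripk3 and Mlkl, so these values only describe the profiles.

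Around the members, 59 genes of the wider pathway were read in 7 lists: ligands, receptors and sensors, ubiquitin and complex I genes, interferon response genes, kinase chaperones and phosphatases, membrane repair genes, and apoptosis executioners. Past 1.5-fold in CKO over WT were 7 higher and 3 lower of 57 measured in myeloid cells, 3 and 1 of 57 in B-like, 3 and 4 of 51 in plasma-like, 8 and 3 of 53 in T-like and 8 and 2 of 53 in innate lymphoid cells. Of all measured genes 34.3% passed in myeloid, 12.5% in B-like, 16.4% in plasma-like, 20.8% in T-like and 26.6% in innate lymphoid cells. Over all lists together the median log2 ratio lay between -0.14 (plasma-like) and 0.18 (myeloid), and single lists ran from -0.36 (interferon response, innate lymphoid) to 0.94 (ligands, plasma-like, 2 genes measured).

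Of the ligand genes measured, 3 of 4 were higher and 0 lower in T-like cells of CKO, where 13.1% of all genes were higher. In innate lymphoid cells 2 of 5 ligands were higher and 0 lower, with a median log2 ratio of -0.22 (all genes 0.07), and in B-like cells 1 of 4 was higher and 1 lower. Ifng, which encodes interferon gamma, had 2141 UMIs (855 CPM) in T-like cells of CKO and 68 UMIs (36.5 CPM) in those of WT, a log2 ratio of 4.55 (4.20 to 4.92), and 1327 CPM against 341 CPM in CKO and WT innate lymphoid cells, a log2 ratio of 1.96 (1.79 to 2.13). The subsets behind these sums differed: Lef1-led cells were 95 of 601 CKO and 148 of 361 WT T-like cells, CD4 T-like cells 134 in CKO and 36 in WT, and the Cd8a and Itgae-led cells 47 in CKO and 1 in WT. In the innate lymphoid class 240 CKO and 24 WT cells were NK-like. The part of this mix in the Ifng values was not tested. Summed NK markers in the T-like cells stood at 2437 CPM in CKO (0 of 7 at 0) and 801 CPM in WT (Ncr1 and Klra4 at 0). Their part in the Ifng values was not tested either. In T-like cells the death ligand gene Tnfsf10 was also higher, at 1.04 (0.42 to 1.69), as was Bak1, a pore-forming apoptosis gene, at 1.10 (0.41 to 1.83), while Tnip2, an NF-kappaB inhibitor gene, was lower at -1.22 (-2.43 to -0.07). Innate lymphoid cells had higher Tradd, a receptor adaptor gene, at 1.59 (0.25 to 3.28), higher Fasl, the Fas ligand gene, at 1.30 (0.76 to 1.90), and higher Ikbkg, which encodes NEMO, on 29 UMIs in CKO and 1 in WT (3.34; 0.75 to 8.69).

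In myeloid cells Tlr3, a receptor for double-stranded RNA, was lower in CKO at a log2 ratio of -1.66 (-2.71 to -0.45), as was Tlr4, the receptor for lipopolysaccharide, at -0.79 (-1.22 to -0.32). In B-like cells Traf2, a partner of the cIAP ligases, was higher at 0.66 (0.30 to 1.03), Irf1 at 0.61 (0.50 to 0.71) and Tnfsf10 at 0.60 (-0.31 to 1.63), and Lta, a TNF family ligand gene, was lower at -0.62 (-1.23 to 0.01). In plasma-like cells Ifng was higher at 1.83 on 19 UMIs in CKO and 3 in WT, Tnfrsf1a, a TNF receptor gene, was higher at 0.75 on 15 and 5 UMIs, and Otulin, a deubiquitinase gene, and Fas, a death receptor gene, were lower at -0.72 and -0.70. S100a8, too, was higher in T-like, B-like, plasma-like and innate lymphoid cells of CKO, and its part in these values was not tested. In plasma-like cells it stood at 34.0 CPM in CKO and 5.24 CPM in WT, a log2 ratio of 2.70 (2.08 to 3.38).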

How the data were processed

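Single-cell RNA of 2 libraries, 1 labelled CKO and 1 labelled WT, was read from deposited tables of whole-number UMI counts per gene and cell. The counts carry a Cell Ranger 6.0.1 stamp, per the file headers. Cell Ranger 5.0.0, the build mm10 and Seurat 3.2.3 are listed in the submitters' processing notes. Cells with under 200 genes or over 20% mitochondrial UMIs were left out; Scrublet in scanpy 1.11.5 marked 213 CKO cells (1.91%) and 1 WT cell (0.0342%), which were removed. The rate assumed for this loading was 8.92% in CKO and 2.34% in WT, so at that rate most doublets went unmarked in both libraries. How many remain in the compared classes is not known. Cells of both libraries were clustered together (2000 variable genes, 30 components, 15 neighbours, Leiden resolution 1), then again within compartments (1500 genes, 20 components). Clusters were named by hand, with fixed marker lists and after their leading genes were seen. Whether a cluster was called mixed or unnamed was decided in the same way. UMIs were summed per library and class. Levels have exact Poisson intervals, ratios exact conditional intervals and shares exact binomial (Clopper-Pearson) intervals, all 95% and for counting error only. With 1 library per label there is no test: a ratio counts as past the fold at 1.5-fold between libraries (20 UMIs over both) or 2-fold the same way in both libraries between classes (20 UMIs in each). A count of 0 is given the limit of 3 counts. The members and gene lists were chosen with earlier results of these data known. All 10 members are named; of the wider lists, up to 4 genes past 1.5-fold per class are named by size of ratio, and for Ripk3, Mlkl and Zbp1 the 3 genes of highest profile correlation. Some genes that this rule names are not reported here. The counting step was tested on simulated data. Python 3.11.15, numpy 2.4.6, scipy 1.17.1 and pandas 2.3.3 were used.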

Additional observations from a re-analysis of the deposited data

Results flagged for a closer look

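Ripk3 lay past 1.5-fold in opposite directions in myeloid and innate lymphoid cells, at a log2 ratio of CKO over WT of 0.75 (-0.15 to 1.83) in myeloid cells and -0.62 (-1.57 to 0.39) in innate lymphoid cells. The myeloid value rests on 279 UMIs in CKO and 10 in WT and the innate lymphoid value on 28 UMIs in CKO and 15 in WT. Both intervals include 0, and the difference between the classes was not tested.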

How the results depend on the processing

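Of 398 recomputed member ratios 370 stayed within their intervals, 28 moved and 0 of those past the fold changed sign, and of 92 recomputed counts 68 stayed within 1.5 times and 24 moved. Some ratios within the fold did change sign, among them T-like Zbp1 (-0.22) and Casp8 (-0.34), which came to 0.23 and 0.02 with cells assigned by their own markers and 0.32 and 0.12 with subsets weighted alike. The myeloid over T-like count stayed 2 (Cflar and Birc3) under every alternative run. The T-like count of 1 became 2 with cells of at least 1000 UMIs and at most 10% mitochondrial UMIs (Ripk3, Ticam1), 4 with cells assigned by their own markers (Ripk3, Mlkl, Ticam1, Cflar), 2 without the top cell and 0 at 50 UMIs. The B-like count of 0 became 2 when thinned (Zbp1, Fadd), 1 by mean per-cell CPM (Zbp1) and 2 by own markers (Mlkl, Zbp1). It became 1 (Ripk3) without the clusters named after S100a8 and Prss2, which are not among their 10 leading genes. That alternative was chosen after seeing the data. The plasma-like count of 1 became 2 when thinned (Cflar, Cyld) and 0 at 50 UMIs or 2-fold. The myeloid count of 5 became 2 with mixed clusters added (Ticam1, Cflar), 3 with subsets weighted alike and 1 at 2-fold (Fadd). The innate lymphoid count of 4 became 0 with subsets weighted alike or at 2-fold, 2 at 50 UMIs (Zbp1, Cflar) and 2 (Ticam1, Cflar) with the Gzmc and Ncr1-led cluster added, also chosen after seeing the data. The plasma-like over T-like count of 5 became 3 when thinned (Casp8, Cyld, Birc3) or with the named gene classes out of the total. The innate lymphoid over T-like count of 0 became 1 (Zbp1) by mean per-cell CPM or with subsets weighted alike, and 3 at 1.5-fold (Ripk1, Zbp1, Cyld), and the B-like over T-like count of 0 became 1 at 1.5-fold (Casp8). The cause of these shifts was not tested. No paired analysis was possible because each label has 1 library. The WT myeloid values rest on 233 cells.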

Other observations

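Outside the compared classes, Mlkl had 12 UMIs (28.7 CPM, 14.8 to 50.1) in 44 fibroblast-like cells of CKO and 0 UMIs in 3 such cells of WT, where a count of 0 allows up to 54.7 CPM. Unnamed cycling lymphoid cells held Mlkl at 16.2 CPM (15 UMIs) in CKO and 12.7 CPM (4 UMIs) in WT. Mast-like cells held Cflar at 216 CPM (57 UMIs, 55 cells) in CKO and 205 CPM (14 UMIs, 9 cells) in WT, with intervals above that of T-like cells in both libraries.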
